A study of Mus musculus with 20 samples.

Results

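RNA recovered with an antibody to the fragile X mental retardation protein, FMRP, was compared with total RNA of the same cells in wild-type mouse neurons. The comparison rests on 10 of the 20 arrays of the study, 5 CLIP arrays of precipitated RNA and 5 Input arrays of total RNA, and on all 24551 features of the deposited table, which carry 21264 gene symbols. The arrays were chosen by their labels alone, whereas the gene lists described here were drawn up with earlier results of these data known. Cortical neurons came from embryonic day 17 mice on a C57Bl6 background and were kept for 8 days in vitro. They were then irradiated at 254 nm, which crosslinks proteins to the RNA they touch. The wild-type group carries an intact Fmr1 gene and gave 5 cultures, each of which was split into Input and CLIP. The other 5 cultures, from FMR1-KO neurons handled alike, supply the background of the precipitation, since no FMRP is there to be caught. The labels do not say whether cultures pool several embryos, nor how the Fmr1 allele was disrupted. Each array value is a log2 signal, so a difference of 1 is a change of 2-fold.

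FMRP is an RNA-binding protein that travels with polyribosomes and granules in dendrites and holds back translation of many of the mRNAs it contacts. Its loss causes fragile X syndrome, and long mRNAs for synaptic scaffolds, adhesion proteins and chromatin regulators are the targets for which it is best known in brain. CLIP uses ultraviolet crosslinks to keep such contacts through a stringent purification. A precipitate also holds RNA that sticks to beads, antibody or tube, so an RNA richer in CLIP than in Input is not by that measure alone bound to FMRP, and the knockout values are given beside the wild-type ones.

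Array medians lay between 5.30 and 5.42 in the wild-type arrays. RNA was amplified before labelling and the arrays were brought to a common scale, so the values show the makeup of each RNA pool and not how much RNA was recovered. Across genes, CLIP arrays correlated with each other at r of 0.975 to 0.993, Input arrays at 0.969 to 0.983, and CLIP with Input at 0.911 to 0.961. Genes are not independent replicates, and these values describe the arrays. Wild-type and knockout arrays come from separate cultures and share no array. Fmr1, the disrupted gene, checks the genotype labels. Its Input values were 5.49, 5.70, 5.64, 5.59 and 6.03 in wild-type cultures 1 to 5 and 3.98, 4.03, 4.06, 4.34 and 4.28 in the knockout, with no overlap.

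CLIP differed from Input over a large part of the transcriptome. Of 21264 genes, 3909 (18.4%) were higher in CLIP and 3797 (17.9%) were lower at a Benjamini-Hochberg adjusted p under 0.05 in a paired limma fit, with the culture as a block. At least 2-fold differences were fewer, with 978 genes (4.6%) higher and 500 (2.35%) lower. By feature in place of gene, 4424 (18%) were higher and 4614 (18.8%) lower, of which 1285 (5.23%) and 844 (3.44%) by at least 2-fold. The median gene differed by −0.09. All 5 CLIP values lay above all 5 Input values for 2716 genes (12.8%) and below them for 2441 (11.5%).

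Calls depended on where a gene lay on the scale. Among the 7766 genes with a mean level of 6 or more over the wild-type arrays, 37.5% were higher and 22.2% lower, and their median difference was 0.14. Between 2 and 4, near the floor of the scale, 882 of 4604 genes were lower (19.2%, near the 17.9% of all genes) and 15 higher, with a median difference of −0.19. The 1331 odorant and vomeronasal receptor genes, which neurons of the cortex are not known to use, lay near this floor, with a median Input level of 3.52. Their median difference was −0.25, and 438 (32.9%) were called lower against 2 higher. In the knockout their median difference was −0.29. A fall of that size thus also occurred in genes at the floor. These receptor genes are also short, with a median span of 951 bp from start to end. Among all genes under 1 kb the median difference was −0.26, and 36.3% were lower. The parts of level and span in the fall of the receptor genes were not tested. At the top of the scale, above 10, 191 of 289 genes were lower and 24 higher.

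**Figure D1:**
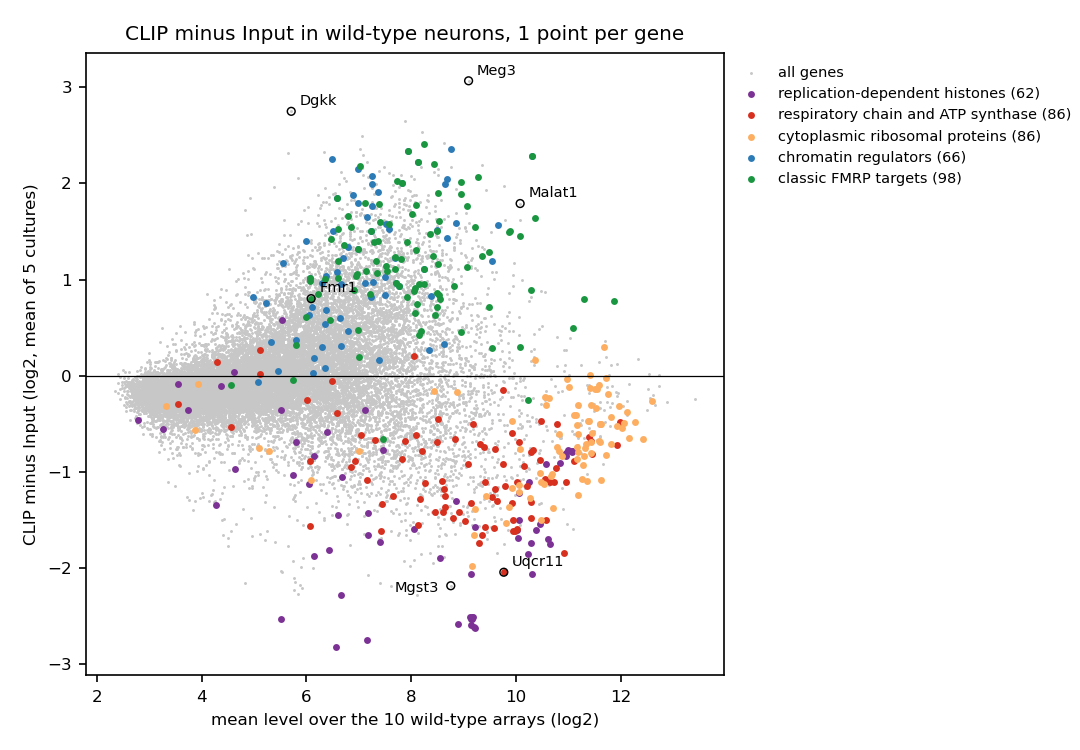
Difference CLIP minus Input (log2, mean of 5 wild-type cultures) against the mean level over the 10 wild-type arrays (log2), 1 grey point per gene, with 5 gene lists in colour and 6 genes named. Histone, respiratory chain and ribosomal protein genes lie mostly below 0, and chromatin regulators and FMRP targets mostly above it.

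With small RNAs and loci known only by a clone or locus name passed over, among them 2610507B11Rik at 2.54, the 14 genes of largest rise among those called, separated and at 6 or more in the higher group were Meg3, Dgkk, Arhgap21, Dst, Mll5 (now Kmt2e), Flna, Bptf, Bdp1, Chd3, Chd2, Mbd5, Mll1 (now Kmt2a), Pclo and Akap9. Their differences ran from 3.07 down to 2.19. Meg3 is an imprinted long noncoding RNA that stays largely in the nucleus. Its Input values in cultures 1 to 5 were 7.51, 7.67, 7.03, 8.00 and 7.62, and its CLIP values 11.46, 10.36, 10.15, 10.76 and 10.43. Every CLIP array was far above every Input array (difference 3.07, SE 0.17, limma adjusted p = 1.19e-06), an 8.39-fold rise. In the knockout Meg3 rose by 3.12, as much as in wild type. Arhgap21, a GTPase activating protein, rose from 7.42 ± 0.25 to 9.84 ± 0.25 (SD, n = 5), and by 1.94 in the knockout. Flna, the actin crosslinker filamin A, rose by 2.36 on average and by between 1.93 and 3.34 in single cultures, with culture 1 far above the others. Bdp1, a subunit of the RNA polymerase III initiation factor, rose by 2.29, and Akap9, a large anchoring protein of the Golgi and centrosome, by 2.19. Of the 14, the 13 other than Dgkk also rose in the knockout, by 1.78 to 3.12. Dgkk, Flna, Bdp1 and Chd2 met the minimum level through their CLIP arrays alone, so their places in this order are not measured ranks.

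Dgkk encodes diacylglycerol kinase kappa, an enzyme that turns the second messenger diacylglycerol into phosphatidic acid, the enzyme family named in the study's title. In wild-type Input it lay near the floor, at 4.35, 4.59, 4.39, 4.08 and 4.27 in cultures 1 to 5. The CLIP values were 7.79, 6.52, 6.92, 6.88 and 7.33, all above any Input value (difference 2.75, SE 0.18, limma adjusted p = 2.18e-06). In knockout cultures Input was 4.48, 4.37, 4.29, 4.65 and 4.18 and CLIP 4.64, 4.58, 4.46, 4.88 and 4.86, with overlapping ranges (difference 0.29, limma adjusted p = 0.169). Since the Input values sit at the floor, where log2 differences are compressed, the 6.73-fold rise holds for these array values only. Of the 10 diacylglycerol kinase genes measured, 8 were higher in wild-type CLIP and 0 lower. The other 9 differed by 0.17 to 1.32 in wild type and by 0.21 to 1.03 in the knockout. Dgkh, the next, rose by 1.32 in wild type and 1.03 in the knockout. Dgkb, the isoform of striatal and hippocampal neurons, rose by 0.66 and 0.85. The difference between genotypes passed for none of these 9, with limma adjusted p between 0.903 and 1.00.

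Kinases, phosphatases, phospholipases and receptors of lipid second messengers formed a list of 74 genes that had 44 higher, 0 lower and a median of 0.40. Itpr1, the receptor that releases calcium on inositol trisphosphate, rose by 1.47 (1.06 in the knockout), and Pi4ka, a phosphatidylinositol kinase, by 1.30 (0.83). Fmr1 mRNA, which FMRP is known to bind, was itself richer in CLIP. Its Input values are given above, and its CLIP values were 6.59, 6.20, 6.33, 6.80 and 6.56 in wild-type cultures 1 to 5, all above the Input values (difference 0.80, SE 0.13, limma adjusted p = 6.26e-04). In the knockout CLIP it lay at 3.92, 3.81, 3.93, 4.03 and 3.93, near the floor, where no enrichment could be seen (difference −0.22).

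**Figure D2:**
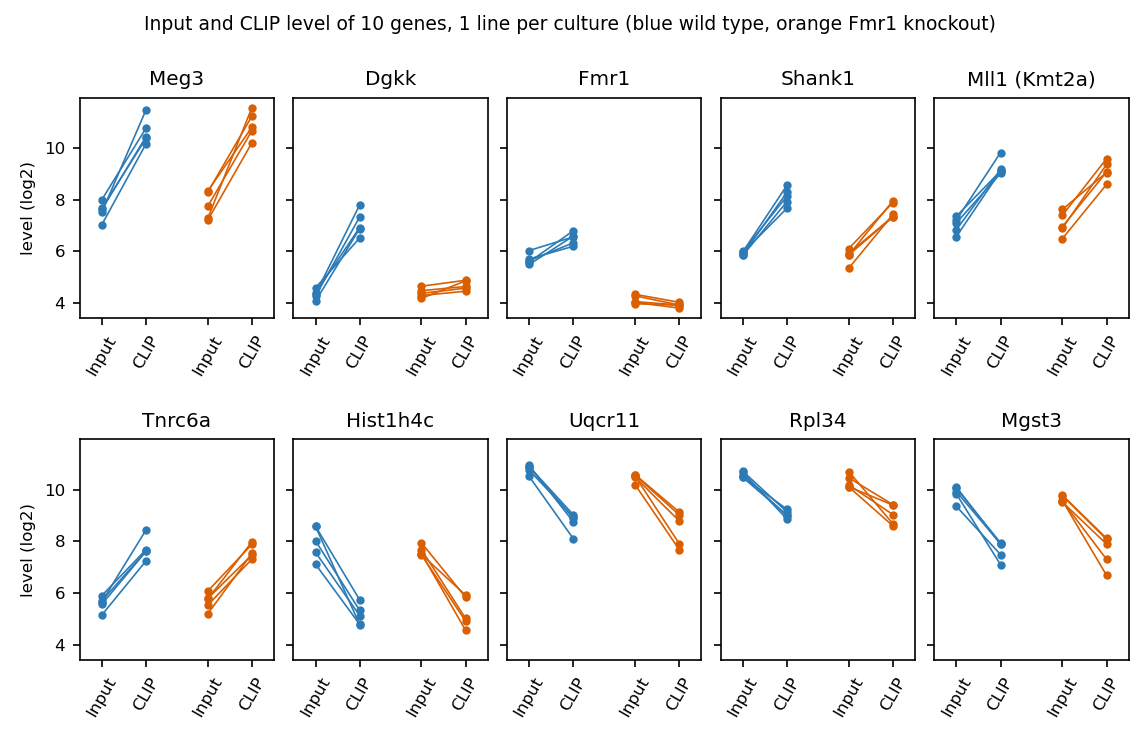
Log2 levels of 10 genes in Input and CLIP, each line joining both arrays of a culture, wild type in blue and Fmr1 knockout in orange. Dgkk rises in wild type from about the level of all knockout arrays, whereas Meg3, Shank1, Mll1, Tnrc6a and the 4 falling genes move the same way in both genotypes.

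Genes known in brain as FMRP targets were described through a list of 98, written from general knowledge. Of these, 90 were higher in CLIP, 1 lower and 7 not called, against 18.4% higher among all genes. The median difference was 1.12, beside −0.09 for all genes. Of the 94 members with a mean level of 6 or more, 88 were higher, with a median of 1.15. All genes at that level were 37.5% higher, with a median of 0.14. Those of them whose span from start to end was 100 to 300 kb were 71.0% higher, with a median of 0.66. The median span of the list lay in that range. By culture the median was 1.19, 1.17, 1.24, 0.96 and 1.16 in cultures 1 to 5, so every culture showed it and culture 4 was lowest. In the knockout the medians were 0.77, 1.13, 0.62, 0.99 and 0.94, with 86 of 98 members higher there too. The median level of the list in wild-type Input was 7.45, 7.21, 7.18, 7.36 and 7.27 and in CLIP 8.58, 8.47, 8.44, 8.43 and 8.56, and these ranges do not overlap.

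Dst, the cytoskeletal linker dystonin, gave Input values of 6.92, 6.96, 7.09, 7.16 and 7.11 and CLIP values of 9.64, 9.20, 9.48, 9.42 and 9.57 (difference 2.41, SE 0.11, limma adjusted p = 7.68e-07). Chd3, a helicase of the NuRD complex, was already well expressed in Input, at 9.36, 8.99, 9.20, 9.21 and 9.08, and reached 11.55, 11.33, 11.51, 11.38 and 11.49 in CLIP (difference 2.28, SE 0.10, limma adjusted p = 7.68e-07). In both genes the lowest CLIP array lay above the highest Input array. The knockout differences were 1.99 for Dst and 1.99 for Chd3. Slc1a2, the glial glutamate transporter, was the 1 member that fell, by 0.66 on the log2 scale (limma adjusted p = 0.00196). It is also on the astrocyte list below, of which 8 of 15 were lower.

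Proteins that organise the postsynaptic density were high in CLIP as mRNAs. Of 45 postsynaptic scaffold and signalling genes, 37 were higher and 1 lower, with a median of 0.93 (0.65 in the knockout). Shank1, a master scaffold of excitatory synapses, had Input values of 5.98, 5.95, 5.99, 5.84 and 5.88 and CLIP values of 8.55, 7.66, 8.13, 7.92 and 8.28 (difference 2.18, SE 0.13, limma adjusted p = 1.33e-06). The Input arrays agreed closely, and each CLIP array stood above the Input of its culture by 1.71 to 2.57. Agap2, an Arf GTPase activating protein that couples to phosphoinositide 3-kinase, rose by 2.03. Kalrn, the exchange factor kalirin that shapes dendritic spines, rose by 1.93, and Sipa1l1, a Rap GTPase activating protein of spines, by 1.85. These compare with 1.63, 1.67 and 1.47 in the knockout. Cnih2, which escorts AMPA receptors, was lower by 0.36, a call that reversed to a difference of 0.07 (limma adjusted p = 0.741) after quantile normalization and was lost without culture 3 (0.0841), culture 4 (0.122) or culture 5 (0.118).

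On the presynaptic side the scaffold and the vesicle parted. Of 37 active zone genes, 33 were higher and 2 lower, with a median of 0.80. Pclo, the giant active zone protein piccolo, rose from 7.34 ± 0.30 in Input to 9.54 ± 0.24 in CLIP (SD, n = 5, limma adjusted p = 7.68e-07). Ppfia3, a liprin that docks vesicle release sites, had Input values of 6.33, 6.36, 6.21, 6.55 and 6.32 and CLIP values of 8.19, 7.97, 8.22, 8.31 and 8.50 (difference 1.89, SE 0.11, limma adjusted p = 1.31e-06). No CLIP value reached down to Input, and the knockout difference was 0.96. Among 51 genes of the synaptic vesicle and the SNARE machinery 13 were higher, 9 lower and 29 not called, and the median was 0.07. Syn3, a synapsin, rose by 1.28, and Rab3a, the vesicle GTPase, fell by 0.66 on the log2 scale. The difference between these lists was not tested.

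Receptors and channels followed in part, and their counts are to be read against 18.4% higher and 17.9% lower among all genes. Of 31 ionotropic glutamate receptor and auxiliary subunit genes, 21 were higher and 1 lower, with a median of 0.62. Of the 23 with a mean level of 6 or more, 19 were higher, with a median of 0.78. All genes of 100 to 300 kb at that level were 71.0% higher, with a median of 0.66. Grik1 and Grik5, kainate receptor subunits, rose by 2.06 and 1.88. Grin2b, the NMDA receptor subunit that prevails in young neurons, gave Input values of 8.24, 7.61, 7.66, 7.72 and 7.76 and CLIP values of 9.45, 8.95, 8.92, 8.82 and 9.10 (difference 1.25, SE 0.10, limma adjusted p = 5.08e-06), with every CLIP array above every Input array. Of 8 metabotropic glutamate receptor genes, 3 were higher. Grm5, the receptor mGluR5 whose signalling is exaggerated in fragile X models, rose by 0.95 in wild type and 0.54 in the knockout. The 24 genes of GABA receptors and transmission had 6 higher, 1 lower and a median of 0.04, which turned to −0.05 after quantile normalization. Gabbr2, a GABA-B receptor subunit, rose by 1.47. Of 64 voltage-gated channel genes, 39 were higher and 1 lower, with Kcnq3, an M-current potassium channel, up by 1.47 and Cacna1d, an L-type calcium channel, up by 1.55. The median of this list ran from 0.50 to 0.73 over wild-type cultures and from 0.37 to 0.49 over knockout cultures, without overlap.

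Other lists of structural and regulatory genes had many rises too, beside 18.4% higher among all genes. Of 57 cytoskeletal scaffold genes, 45 were higher and 4 lower, with a median of 0.89. Apc, a microtubule-binding tumour suppressor, had Input values of 8.19, 8.22, 8.20, 8.46 and 8.12 and CLIP values of 10.50, 9.74, 10.55, 10.27 and 10.45 (difference 2.06, SE 0.14, limma adjusted p = 2.29e-06). Its knockout difference was 1.34, and the difference between genotypes had limma adjusted p = 0.606. Pfn1, the small actin-binding protein profilin, fell by 0.87. Of 26 genes of giant ubiquitin ligases and their kin, 22 were higher and 0 lower, led by Huwe1, a HECT ligase, at 2.02 and Mycbp2, a ligase of axon growth, at 1.90. All 26 had differences above 0, the smallest being 0.06. The giant cadherins, 11 Fat, Dachsous and Celsr genes, had 9 higher and a median of 1.09, whereas the 36 protocadherins had 10 higher and a median of 0.16. Of 79 kinesin, dynein and myosin heavy chain genes, 36 were higher and 3 lower, with Myo9a, an unconventional myosin, up by 1.95 over 13 features that ranged from 0.30 to 2.60. The median of this list lay between 0.25 and 0.38 in wild-type cultures, above the 0.11 to 0.21 of knockout cultures. The motor and voltage-gated channel lists were the only ones of the 43 whose culture medians did not overlap between genotypes, and the difference was not tested over lists. Of 28 neurexin, neuroligin, latrophilin and related adhesion genes, 20 were higher and 0 lower. Of the 23 with a mean level of 6 or more, 17 were higher, with a median of 0.59. All genes of 100 to 300 kb at that level were 71.0% higher, with a median of 0.66. The median span of the list lay in that range, so its values are near those of that background.

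Chromatin regulators were among the lists with the highest medians. Of 66 genes, 57 were higher and 0 lower, with a median of 1.10 and medians of 1.05, 1.19, 1.01, 1.11 and 1.28 in cultures 1 to 5. In the knockout the medians were 0.90, 1.21, 0.82, 0.93 and 1.17, a range that overlaps the wild-type one. Mll1 (now Kmt2a), a histone H3 lysine 4 methyltransferase, had Input values of 7.21, 7.36, 6.84, 7.10 and 6.57 and CLIP values of 9.82, 9.10, 9.16, 9.01 and 9.10 (difference 2.22, SE 0.14, limma adjusted p = 1.68e-06). Chd2, a chromatin remodeller, rose by 2.25, and Bptf, a subunit of the NURF remodeller, by 2.34. None of these overlapped between CLIP and Input. Zinc finger genes, a family of 300, had 106 higher, 17 lower and a median of 0.16.

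RNA regulators were mixed. Of 43 genes of the FMRP family, RNA granules and the microRNA machinery, 30 were higher and 0 lower, with a median of 0.52 (0.53 in the knockout). Tnrc6a, the scaffold of microRNA silencing, had Input values of 5.67, 5.16, 5.71, 5.91 and 5.58 and CLIP values of 8.44, 7.25, 7.62, 7.68 and 7.62 (difference 2.12, SE 0.14, limma adjusted p = 2.18e-06), without overlap. Dicer1, which cuts microRNA precursors, rose by 1.66. Splicing factors went both ways, 24 of 66 higher (36.4%) and 14 lower (21.2%). Of the 66, 63 had a mean level of 6 or more. All genes at that level were 37.5% higher and 22.2% lower, so the shares of this list are near those of its background. Sfrs18 (now Pnisr) rose by 2.16 and Sf3b1, a large subunit of the U2 particle, by 1.20, while Snrpe, a small Sm core protein, fell by 1.55. Translation factors were divided likewise, 19 of 65 higher (29.2%) and 21 lower (32.3%). Eif5b, which joins the ribosomal subunits, rose by 1.58, and Eif3k, a small subunit of eIF3, fell by 0.94.

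Among noncoding transcripts, 5 of 16 long noncoding and snoRNA host RNAs were higher and 2 lower. Malat1, an abundant RNA of nuclear speckles, rose from 9.19 ± 0.40 to 10.98 ± 0.33 (SD, n = 5, limma adjusted p = 2.03e-06) and by 1.89 in the knockout. Gas5, a snoRNA host, rose by 1.57 in wild type and 2.27 in the knockout. Of 13 small RNA features, 9 were lower and 1 higher. The U3 snoRNA Rnu3a fell by 2.19 and Rnu2, U2 snRNA, by 1.75, whereas Scarna17, a Cajal body RNA, rose by 1.97. The 7 features of Rnu2 belong to repeated copies of nearly one sequence, and all of them were called.

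**Figure D3:**
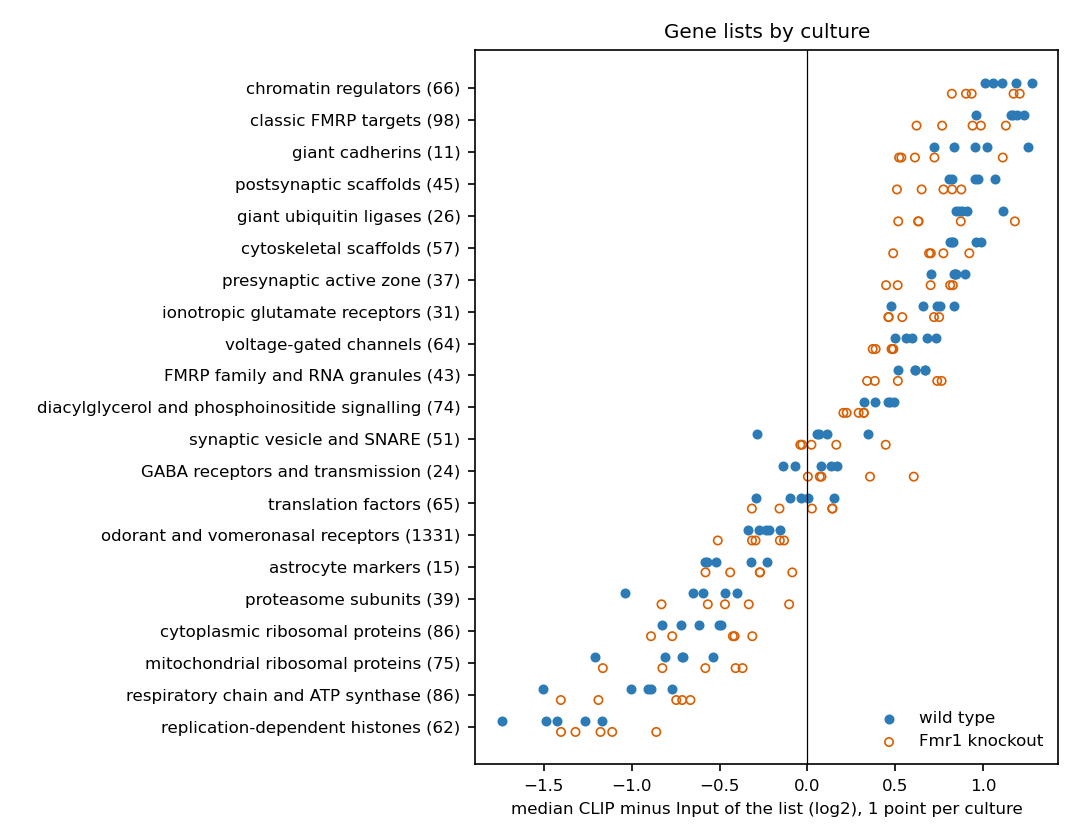
Median CLIP minus Input (log2) of 21 gene lists, 1 point per culture, filled blue for the 5 wild-type and open orange for the 5 knockout cultures, with the number of genes measured in brackets. From chromatin regulators at the top to histones at the bottom, lists keep about the same order in both genotypes.

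The largest falls among the named genes were those of replication-dependent histones, which end in a stem-loop and carry no poly(A) tail. Of 62 histone genes, 57 were lower and 1 higher, with a median of −1.47 (−1.18 in the knockout). They made up 13 of the 14 largest falls. Among these, Hist1h4c, Hist1h4f, Hist1h2ab and Hist1h4h met the minimum level through their Input arrays alone. The places of these genes in that order are not measured ranks. Hist1h4c had Input values of 7.12, 8.59, 7.58, 8.58 and 8.02 and CLIP values of 4.80, 5.74, 5.14, 4.79 and 5.34 in cultures 1 to 5 (difference −2.82, SE 0.18, limma adjusted p = 2.03e-06). The lowest Input array lay well above the highest CLIP array. By histone class, the medians were −1.05 over 5 H1 genes, −0.80 over 16 H2A genes, −1.50 over 17 H2B genes, −2.52 over 12 H3 genes and −1.80 over 12 H4 genes. Copies within a class are nearly identical in sequence and share signal, so the H3 values in particular are not independent of each other. The 1 call in the other direction, Hist2h3c2-ps at 0.58, is a pseudogene and was lost in 6 of its alternatives, among them without culture 2 (limma adjusted p = 0.0781), culture 4 (0.0645) or culture 5 (0.0763). Histone mRNAs belong to dividing cells. Of the progenitor and cycling markers, 3 of 15 were higher, 4 lower and the median was −0.07. Pcna, the replication clamp, fell by 0.94, but Mki67, a large protein of dividing cells, rose by 1.10. The part of cycling cells in the histone result was not tested.

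Nuclear genes of the respiratory chain and ATP synthase mostly fell. Of 86, 78 were lower and 0 higher, against 17.9% lower among all genes, with a median of −1.02. Of the 81 with a mean level of 6 or more, 77 were lower, beside 22.2% of all genes at that level. The median level of the list was 9.78, 9.70, 9.91, 9.92 and 9.89 in Input of cultures 1 to 5 and 8.17, 8.80, 8.79, 8.83 and 8.82 in CLIP. The CLIP array of culture 1 was the lowest, the other 4 lay close together, and no CLIP value reached an Input value. Complex I, which takes electrons from NADH, had 35 of 37 genes lower and a median of −1.26. Complex III had 9 of 9, complex IV 14 of 18, the ATP synthase 16 of 17 and complex II 3 of 4. Uqcr11, a small subunit of complex III, had Input values of 10.51, 10.75, 10.88, 10.93 and 10.89 and CLIP values of 8.11, 8.95, 8.90, 8.76 and 9.03 (difference −2.04, SE 0.11, limma adjusted p = 1.23e-06). Atp5e, the epsilon subunit of the ATP synthase, fell by 1.84. Neither gene overlapped between CLIP and Input, and the knockout differences were −1.96 and −1.96.

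Of 9 genes encoded in the mitochondrial genome itself, 5 were lower (55.6%) and 0 higher, beside 66.1% lower among all genes with a mean level of 10 or more. The median of the 9 was −0.30, beside −0.04 in the knockout. After quantile normalization the 4 largest of them were no longer called: ND3, a complex I subunit, had −0.63 as deposited (limma adjusted p = 0.00139) and limma adjusted p = 0.156 then. ATP6, of the ATP synthase, had −0.49 and limma adjusted p = 0.141 after quantile normalization.

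Ribosomal proteins fell in both compartments. Of 86 cytoplasmic ribosomal protein genes, 68 were lower (79.1%) and 1 higher, with a median of −0.66 and medians of −0.83, −0.50, −0.72, −0.49 and −0.62 in cultures 1 to 5. Their median Input level was 11.46. Of all genes under 10 kb with a mean level of 10 or more, a group that can include them, 73.4% were lower, with a median of −0.63. The values of the list are near those of that group. Of 75 mitochondrial ribosomal protein genes, 59 were lower and 1 higher, with a median of −0.78. Of the 70 with a mean level of 6 or more, 57 were lower, beside 22.2% of all genes at that level. Rpl34, a protein of the large subunit, had Input values of 10.67, 10.47, 10.57, 10.71 and 10.49 and CLIP values of 8.86, 9.01, 8.99, 9.14 and 9.24 (difference −1.53, SE 0.11, limma adjusted p = 2.89e-06). Its 5 features differed between −2.01 and −0.75 and all were called. Rpl22l1, a paralog of Rpl22, fell by 1.98, and Mrps18c, of the small mitochondrial subunit, by 1.95. Ribosomal protein genes have many processed pseudogenes, so some features may draw signal from copies. Rpl4, one of the longest ribosomal proteins, went the other way at 0.30 (0.46 in the knockout), a call that was lost without culture 1 (limma adjusted p = 0.0684), culture 2 (0.141), culture 4 (0.123) or culture 5 (0.0928), and after median centring (0.0687). Of 39 proteasome subunit genes, 26 were lower and 1 higher, beside 17.9% lower among all genes. Psmb7, a catalytic subunit of the core, fell by 1.54, and Psmd1, the largest protein of the regulatory particle, rose by 0.87. Mgst3, a small membrane enzyme of glutathione metabolism, was the 1 gene besides histones among the 14 largest falls, from 9.85 ± 0.30 to 7.67 ± 0.37 (SD, n = 5, limma adjusted p = 1.33e-06).

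Several further groups stayed near the middle, and their counts are to be read against 18.4% higher and 17.9% lower among all genes. Of 20 aminoacyl-tRNA synthetase genes, 6 were higher and 1 lower, with a median of 0.18 that became −0.01 after quantile normalization. Eprs, the fused synthetase for glutamate and proline, rose by 0.84. Chaperones of the heat shock and endoplasmic reticulum families had 6 of 39 higher and 6 lower, and the small mitochondrial chaperonin Hspe1 fell by 1.15. Immediate early genes, which neuronal activity switches on, had 6 of 28 higher and 4 lower, with Homer1, a postsynaptic adaptor whose short form is activity-induced, up by 0.82. Sterol and fatty acid synthesis had 6 of 32 higher and 9 lower. There Acaca, an acetyl-CoA carboxylase, rose by 1.41. Scd2, a desaturase, had a difference of −0.55, which became −0.11 and was no longer called (limma adjusted p = 0.578) after quantile normalization. Of 92 keratin and keratin-associated genes, which neurons are not known to use, 18 were lower (19.6%, near the 17.9% of all genes) and 0 higher, with a median of −0.19.

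Marker genes describe which cells the RNA came from. Defining markers of neurons were well above the floor in Input, with Tubb3 at 10.39 ± 0.24 and Mtap2 (now Map2) at 9.85 ± 0.14 (SD, n = 5). Of 12 pan-neuronal markers, 8 were higher in CLIP and 1 lower. The rises included the RNA of Mtap2, a microtubule-associated protein, at 0.89. The fall was Tubb3, a tubulin, at −0.81, which was no longer called after quantile normalization (limma adjusted p = 0.0706). Of 16 excitatory markers, 8 were higher and 0 lower. Of 16 inhibitory markers, 5 were higher and 3 lower. With a mean level of 6 or more, 6 of 13 excitatory markers were higher and 0 lower, and 5 of 14 inhibitory markers higher and 2 lower. All genes at that level were 37.5% higher and 22.2% lower, so the inhibitory counts are near their background. Astrocyte markers stood at unequal levels, which do not by themselves show how many glia were present. Slc1a3, an astrocyte glutamate transporter, stood at 8.63 ± 0.15 in Input and 7.68 ± 0.15 in CLIP. In Input, Fabp7 and Aldoc were high, at 11.89 and 9.71, whereas Gfap and Aqp4, at 5.46 and 5.41, were near the array medians. Of 15 astrocyte markers, 8 were lower and 0 higher, with a median of −0.43 and a range of levels in Input from 4.07 to 11.89. Oligodendrocyte lineage markers had 3 of 13 lower and 1 higher, microglia markers 2 of 14 lower, endothelial and meningeal markers 2 of 15 lower and blood markers 1 of 8 lower, with 0 higher in the last 3 lists. The lower shares of those 3 lists, 14.3%, 13.3% and 12.5%, lay below the 17.9% of all genes, and that of the oligodendrocyte lineage list, 23.1%, was near it. In such a culture fewer cells of a type and less RNA per cell cannot be told apart, and here both fractions came from the same cultures. The part of glia in the list results was not tested.

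Across these groups, long genes tended to rise and short genes to fall. Gene span, the distance from start to end of the gene in the RefSeq annotation with introns included, was set against CLIP minus Input among genes with a mean level of 6 or more. The bins and this minimum were chosen after the data had been seen. Genes under 1 kb had a median difference of −0.82 (n = 149), those of 10 to 30 kb 0.05 (n = 2345) and those of 300 kb or more 0.79 (n = 300), and each bin was above the one before it. In the shortest bin 6 genes were higher and 111 lower, and in the longest 237 and 6. The medians of single cultures ran from −0.90 to −0.79 in the shortest bin and from 0.71 to 0.93 in the longest. The same order held at matched levels: at a mean level of 6 to 8, genes under 10 kb had a median of −0.16 and those of 100 kb or more 0.67, and at 8 to 10 the medians were −0.65 and 0.85. Base composition, transcript length and intron signal were not separated from span. Words on the size of single proteins in this report are background, since protein size was not measured and its part was not tested.

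As a slope over 20651 genes, CLIP minus Input rose by 0.0991 ± 0.00804 (SD, n = 5 cultures) for each 2-fold longer span. All 5 slopes were positive, between 0.0913 and 0.110, with p = 0.0625 in an exact two-sided sign-flip permutation test, the smallest that 5 cultures allow. The knockout slope was 0.0929 ± 0.0245 (SD, n = 5), and the genotypes differed by 0.00628 (exact two-sided permutation test, p = 0.611). Spread between cultures was wider in the knockout. Over the 7702 genes with a mean level of 6 or more, an alternative chosen after seeing the data, the slopes were 0.185 in wild type and 0.164 in the knockout, a difference of 0.0219 (exact two-sided permutation test, p = 0.103). With features of a mean of 5 or more they were 0.150 and 0.135, and the difference was 0.0142 (exact two-sided permutation test, p = 0.278).

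**Figure D4:**
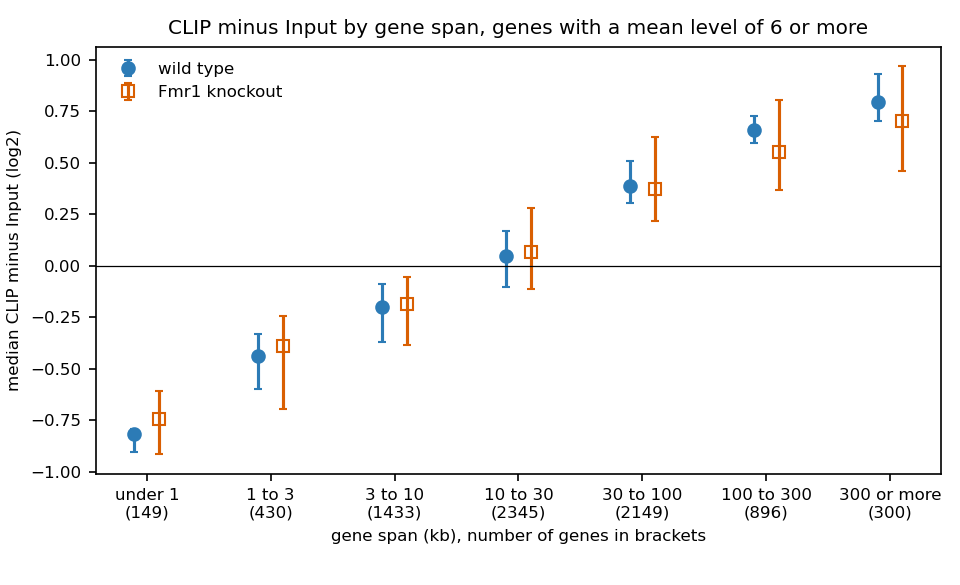
Median CLIP minus Input (log2) of genes in 7 bins of gene span (kb), for genes with a mean level of 6 or more. Points are medians of the genes' mean differences, bars the lowest and highest of the medians of the 5 cultures. The median climbs from −0.82 under 1 kb to 0.79 at 300 kb or more in wild type (filled) and likewise in the knockout (open).

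The profile was then set against that of neurons without FMRP. Across 21264 genes the difference in wild type and that in the knockout correlated at r = 0.912, a description, since genes are not replicates. Of the 3909 genes higher in wild-type CLIP, 3121 were also higher in the knockout, 79.8% of the wild-type calls and 84.0% of the 3717 knockout calls (17.5% of all genes). Of the 3797 lower ones, 2499 were lower in both, 65.8% and 57.5% of the 4345 knockout calls (20.4% of all genes). The knockout count of lower genes was 2735 without knockout culture 5 and 2870 without knockout culture 2. Wild-type genes that rose at least 2-fold had a median of 1.26 in wild type and 1.10 in the knockout, though the first value is raised by that choice. Genes that fell at least 2-fold had medians of −1.25 and −1.14. Between single cultures, the profile of differences correlated at a median r of 0.723 over 10 wild-type pairs and 0.689 over 25 pairs of a wild-type with a knockout culture. Between knockout cultures the median r was 0.695 over 10 pairs, about that across genotypes.

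Enrichment differed between genotypes for 2 genes, both higher in wild type (0.00941% of genes), and for 0 genes in the lower direction (0%), by the interaction in a limma fit to all 20 arrays. Before adjustment, 754 of 21264 genes had p under 0.05 in the higher and 447 in the lower direction. With no difference between genotypes, about 0.05 of all genes would be counted in both directions together, and these counts are near that share. Dgkk exceeded the knockout by 2.46 (SE 0.23, limma adjusted p = 3.95e-04), and it passed in every alternative run, with adjusted p between 1.77e-05 and 0.00383. The other was 2610507B11Rik, a gene known by its clone name. Its wild-type Input values were 6.90, 6.86, 6.95, 6.98 and 7.03 and its CLIP values 9.66, 9.22, 9.79, 9.26 and 9.47, while the knockout went from 7.30, 6.80, 7.48, 7.04 and 7.17 to 8.44, 8.47, 8.51, 8.42 and 8.23. CLIP stood above Input in both genotypes, and all 5 wild-type CLIP values stood above the knockout ones. The excess was 1.28 (SE 0.17, limma adjusted p = 0.0154), and it was no longer called without wild-type culture 1 (0.0566), 3 (0.0840) or 5 (0.0592) or knockout culture 1 (0.0584), 3 (0.0876) or 5 (0.0880). The next genes, Tln2, Fmr1 and Gm13235, did not pass, each with limma adjusted p = 0.0752. Tln2, an adaptor between integrins and actin, had differences of 1.77 and 0.94, Fmr1 0.80 and −0.22, and Gm13235 1.46 and 0.25 in wild type and knockout. The wild-type median lay further from 0 than the knockout one in most lists. Examples are FMRP targets (1.12 and 0.89), postsynaptic scaffolds (0.93 and 0.65) and histones (−1.47 and −1.18). Giant cadherins (1.09 and 0.68), giant ubiquitin ligases (0.89 and 0.72) and proteasome subunits (−0.60 and −0.43) are further ones. The wild-type median lay nearer to 0 in the other lists, such as long noncoding and snoRNA host RNAs (0.31 and 0.74), splicing factors (0.09 and 0.26) and GABA genes (0.04 and 0.16). No member of the lists named here passed the interaction, and the difference between genotypes was not tested over lists.

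**Figure D5:**
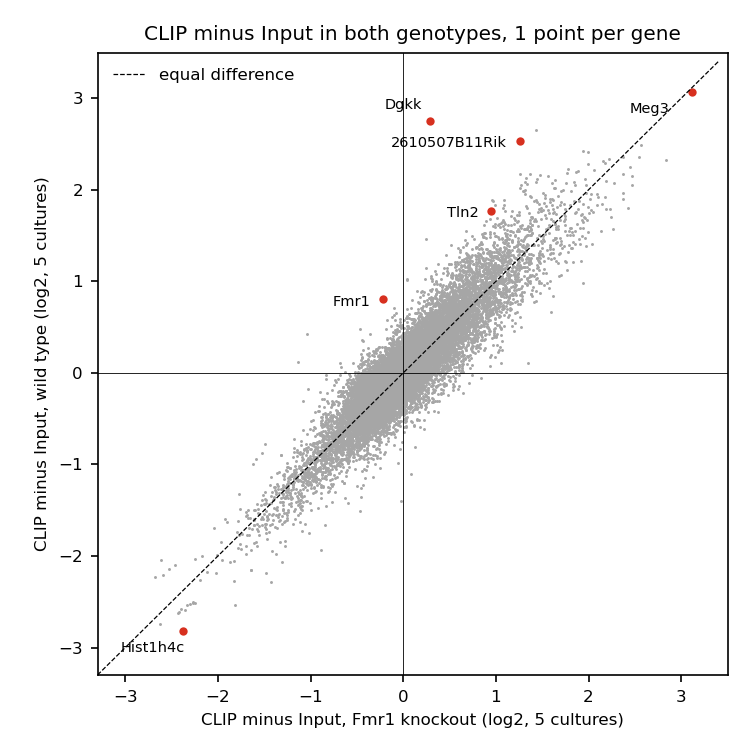
CLIP minus Input in wild type against the same in the Fmr1 knockout (log2, means of 5 cultures), 1 point per gene, with the line of equal differences and 6 genes in red. Most genes follow the line, and Dgkk and 2610507B11Rik stand above it, at 2.75 against 0.29 and 2.54 against 1.26.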

How the data were processed

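RNA of 5 wild-type and 5 Fmr1 knockout cultures was measured on 20 arrays, 1 Input and 1 CLIP array per culture. The authors' deposited table holds log2 values made with robust multi-array averaging (RMA), and the submitters' processing notes name Affymetrix Expression Console 1.1. Sources used here name no genome build. Amplification and biotin labelling used NuGEN kits, per the labels' protocols. The labels call the array an exon array, but its 8-digit identifiers look like those of a sister product. No comparison here rests on which it was.

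The table has 24558 lines, of which 7 summary lines were left out. A gene's value is the mean of the log2 values of its features (1786 symbols have several). Of 24551 features, 23803 matched a RefSeq gene table (GRCm38.p6), used for current names and spans. CLIP and Input were compared in wild type with limma 3.58.1 in R 4.3.3 (lmFit and eBayes, two-sided, the culture as a block, Benjamini-Hochberg over all genes or features). The pairing comes from the design text, which counts 10 cultures, and from the deposited ratio columns, which equal CLIP minus the Input of the same number (largest difference 0). Residuals of same-numbered wild-type arrays correlated at 0.243, 0.260, 0.259, 0.0908 and 0.0599. The knockout and the interaction came from a limma fit to all 20 arrays with 10 culture blocks. A slope on protein length could not be computed without protein sequences, and gene span was used in its place. Other steps ran in Python 3.11.15 (pandas 2.3.3, numpy 2.4.6, scipy 1.17.1), and figures were drawn with matplotlib 3.10.9. The paired fit was first tested on simulated data with known changes, 50 genes of each size. It recovered 38 raised by 1 and 46 lowered by 1, but 14 raised by 0.5 and 10 lowered by 0.5. Far fewer genes changed in the simulation than were called in the data. An adjusted p depends on that share, so the recovered counts do not carry over directly to the real fit. A gene that was not called can still differ between CLIP and Input.

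The members and the 43 gene lists, written from general knowledge, were chosen with earlier results of these data known, so no list is independent evidence of its direction. Of the listed genes, 23 had no feature, among them Neat1, Miat and Usp34. Named genes are the 14 largest differences in each direction among genes with adjusted p under 0.05, separated groups and a higher group mean of at least 6 (small RNAs and unnamed loci passed over). To these were added up to 4 members per list with the largest absolute difference in the direction of the list median and 1 called the other way, Fmr1, Dgkk and the 5 genes of lowest interaction p. Markers printed outside the rule, and the diacylglycerol kinases, were picked by their role. Some genes that the rule names are not reported here. Alternatives were quantile normalization, median centring, features with a mean of 5 or more, each culture left out, no block, a trended robust prior, all 20 arrays and the median of features. With 5 cultures a group, the number of arrays limits the precision.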

Additional observations from a re-analysis of the deposited data

Results flagged for a closer look

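In each set of 5 cultures, the culture farthest from the rest was compared with the spread of all 5 (a gap of over 0.71 of the range). Of 247 sets, 204 named genes and 43 list medians, 17 stood out, a share not far above the about 1 in 20 that chance gives. The sets share the same 5 cultures and lists hold named genes, so they are not independent. Whether any culture differs as a whole was not tested. Culture 1 accounts for 8 of them, culture 2 for 5, culture 4 for 3, culture 5 for 1 and culture 3 for 0.

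In culture 1, CLIP exceeded Input by 3.34 for Flna, by 2.19 for Cacna1d and by 2.63 for Celsr3, an atypical cadherin of axon guidance, each well above the other 4 cultures. Nefm, a neurofilament, rose there by only 0.35, beside a mean of 1.77. The differences of Rps27l, a ribosomal protein paralog, and Ndufs6, of complex I, were −2.36 and −2.52, below the other 4. The median of the chaperone list was −0.54 in culture 1, and that of the oligodendrocyte lineage list 0.0713. In culture 2 the values were 1.94 for Herc2, a giant ubiquitin ligase, 2.46 for Prpf4b, a splicing kinase, −1.05 for Olig2, −1.20 for C1qc and 1.87 for Tln2. In culture 4 they were 0.75 for Stxbp5, a SNARE regulator also called tomosyn, −0.80 for Jund and 0.96 for the median of the FMRP target list. In culture 5 the median of the giant ubiquitin ligase list was 1.11.

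The difference between genotypes in CLIP minus Input passed limma for 2 genes, at 2.46 for Dgkk and 1.28 for 2610507B11Rik, with values by culture in the report.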

How the results depend on the processing

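The wild-type counts of higher and lower genes kept within 1.5 times under all alternatives run except the filter: with features of a mean of 5 or more, 2277 genes and 2931 features were lower (fewer were tested), while the higher counts stayed within that margin. Leaving out a culture gave 3339 to 3887 higher and 2597 to 3528 lower genes. Without the culture as a block, that is without the pairing, 3633 genes were higher and 3313 lower, and the interaction gave 4 genes higher. Quantile normalization gave 5 there, and leaving out a culture 1 to 3. Knockout genes lower numbered 2735 to 4350 with a culture left out, the smallest without knockout culture 5 (2735) and culture 2 (2870). The slope on span was 0.0796 after quantile normalization, 0.150 with the filter, 0.0848 with the Input level as a second term, and 0.185 over genes with a mean of 6 or more, an alternative chosen after seeing the data. The cause of these shifts was not tested. Of 2431 values of the 204 named genes under the alternatives, 2340 kept direction and call, 90 kept direction only and 1 reversed, that of Cnih2 (0.0674 after quantile normalization). In 172 genes every alternative kept the call. Of 344 list medians, 310 moved by less than the SD between cultures, and 6 medians, of 5 lists, changed sign: GABA genes, tRNA synthetases and inhibitory markers after quantile normalization, GABA genes and translation factors without culture 1, and splicing factors without culture 2. The median of all genes was −0.01 after quantile normalization and −0.13 after median centring. The floor of the scale limits what can be said of genes whose level is under about 4 in Input.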
